A study of Mus musculus with 5 samples.

Results

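The 9 genes described here were 8 genes of epithelial identity, the keratins Krt7, Krt8, Krt18, Krt19, and Krt20 and the adhesion genes Epcam, Cldn4, and Cdh1, and Vim as the mesenchymal reference, out of 33696 genes in the scRNA-Seq count matrices of MC38 tumors. They were taken by name and read in every barcode with at least 200 genes, with no upper limit, to ask how far this colon carcinoma line keeps an epithelial identity in the mouse. Little of an epithelial identity was seen in these counts, which hold no epithelial class to show how such cells would be counted. Across 25095 Ptprc-low barcodes holding 505763602 UMIs (unique molecular identifiers, each standing for 1 captured transcript), all 8 epithelial genes together gave 430 UMIs, and Vim alone gave 1704261.

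Keratins are the intermediate filament proteins of epithelia and assemble as obligate pairs of a type I chain (Krt18, Krt19, Krt20) with a type II chain (Krt7, Krt8). Krt8 with Krt18 is the founding pair of simple epithelia, including the gut lining, where Krt19 and Krt20 are also made. E-cadherin (Cdh1) holds epithelial cells together at adherens junctions, claudin-4 (Cldn4) seals tight junctions, EpCAM (Epcam) is a homotypic adhesion protein of most simple epithelia, and vimentin (Vim) is the filament protein of mesenchymal cells and leukocytes. In an epithelial-mesenchymal transition, repressors of the ZEB and SNAI families lower Cdh1 and other junction genes while Vim rises.

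MC38, a transplantable line from a chemically induced mouse colon adenocarcinoma, was grown s.c. in male C57BL/6J WT mice aged 8 to 10 weeks, and tumors were taken on day 15. All mice received either isotype antibody or dual checkpoint inhibition (CPI, anti–PD-1 with anti-CTLA4) at days 3, 6, and 9, and then vehicle or the JAK1 inhibitor ABT-317 at 20 mg/kg on day 12. Hence there were 4 groups: isotype alone, isotype + ABT-317, CPI alone, and CPI + ABT-317. Live CD45- and CD45+ cells were sorted, tagged with hashtag antibodies, and loaded in about equal parts in 2 reactions. Each group had its own hashtag in each reaction, mice within a group could not be told apart, and all results rest on 1 cell line. The 2 reactions are the replicates, and their spread may be technical.

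Reactions 1 and 2 held 37774 and 26962 barcodes with 435031691 and 376693339 gene UMIs, with medians of 6785 and 7409 UMIs per barcode, and 1387 barcode sequences occurred in both. A single hashtag was found on 36493 of the 64736 barcodes, none on 5222, and several on 23021, and all of them entered the levels. Clustering without the 9 genes gave 16 clusters, of which 3 met no marker list and held Ptprc, the gene of the leukocyte antigen CD45, at under 5% of its level in the immune clusters. These Ptprc-low clusters made up 38.8% of barcodes and 62.3% of UMIs. Of the Y-linked genes Ddx3y, Eif2s3y, Uty, and Kdm5d, which the male hosts carry, the summed level there was 0.903 and 0.571 UMIs per 1000000 (CPM) in reactions 1 and 2, or 0.734% of that in dendritic cell (DC)–like barcodes. Ptprc stood at 0.595%, the T cell list at 0.189%, and the macrophage list at 0.534% of their highest class. Ptprc and both lists were part of the rule that set the classes, while the Y-linked genes were not. The fibroblast list was not near 0: all 8 of its genes were over 10 CPM in the Ptprc-low barcodes, with a sum of 2148 and 2178 CPM, against 32518 and 36757 in fibroblast-like and 1799 and 1523 in T-like barcodes. No cluster met the epithelial list under any of 3 clusterings.

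The promoters of 4 of the genes are shown, the first 3 from genes low in the Ptprc-low barcodes and the last from the most counted gene. Each runs from 250 bases before to 50 bases after the RefSeq start (GRCm38.p6), 5′ to 3′ on the gene's strand. Capitals mark CAGGTG or its reverse complement CACCTG, the E-box that ZEB and SNAI repressors are known to bind. The windows are chr15:102004293-102004592 (minus strand) for Krt8, chr15:102027966-102028265 (plus strand) for Krt18, chr17:87635729-87636028 (plus strand) for Epcam, and chr2:13574061-13574360 (plus strand) for Vim.
Krt8: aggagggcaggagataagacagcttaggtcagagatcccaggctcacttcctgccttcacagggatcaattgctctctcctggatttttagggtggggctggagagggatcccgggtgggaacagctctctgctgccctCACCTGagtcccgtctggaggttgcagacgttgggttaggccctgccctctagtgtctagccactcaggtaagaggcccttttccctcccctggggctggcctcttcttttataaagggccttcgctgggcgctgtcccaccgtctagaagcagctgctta
Krt18: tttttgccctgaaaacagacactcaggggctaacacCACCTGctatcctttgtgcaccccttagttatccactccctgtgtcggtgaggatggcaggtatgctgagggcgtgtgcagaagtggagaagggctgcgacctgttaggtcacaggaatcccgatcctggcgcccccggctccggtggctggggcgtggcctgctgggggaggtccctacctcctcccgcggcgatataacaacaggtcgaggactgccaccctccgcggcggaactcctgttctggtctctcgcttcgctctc
Epcam: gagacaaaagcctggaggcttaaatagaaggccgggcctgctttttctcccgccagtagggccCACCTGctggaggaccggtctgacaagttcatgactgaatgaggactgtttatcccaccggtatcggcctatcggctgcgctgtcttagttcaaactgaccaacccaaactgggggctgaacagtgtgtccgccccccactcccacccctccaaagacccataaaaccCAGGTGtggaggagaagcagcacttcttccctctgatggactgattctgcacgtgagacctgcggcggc
Vim: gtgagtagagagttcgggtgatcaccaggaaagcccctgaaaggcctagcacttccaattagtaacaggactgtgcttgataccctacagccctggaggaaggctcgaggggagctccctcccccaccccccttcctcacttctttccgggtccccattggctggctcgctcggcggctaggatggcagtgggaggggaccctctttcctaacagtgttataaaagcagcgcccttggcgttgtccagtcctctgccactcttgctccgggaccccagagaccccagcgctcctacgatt
The motif stood 111 bases before the start of Krt8, 214 before that of Krt18, and 187 and 19 before that of Epcam, with none in the Vim window. RefSeq windows were found for 7 of the 9 genes, and 5 held the motif. Krt7 had it 44 bases before its start, and Cldn4 had it 14 bases before and 12 bases after, while Krt20 had none. In the Ptprc-low barcodes Krt20 and Cldn4 had 1 UMI each and Krt8 had 57. The promoters shown are thus not those of the lowest genes and do not stand for the set. Of all 32851 promoters of this length, 20.2% held the motif and 2.88% held it at least 2 times. A match is a run of letters and says nothing of binding in these cells.

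By their positions in the GENCODE annotation of GRCm38, Krt7 (ENSMUSG00000023039, chr15:101411043-101430313), Krt8 (ENSMUSG00000049382, chr15:101996698-102004482), and Krt18 (ENSMUSG00000023043, chr15:102028180-102032027) lie in the keratin cluster of chromosome 15. Krt19 (ENSMUSG00000020911, chr11:100140810-100148665) and Krt20 (ENSMUSG00000035775, chr11:99428403-99438150) lie in that of chromosome 11. Epcam (ENSMUSG00000045394) is at chr17:87635979-87651129, Cldn4 (ENSMUSG00000047501) at chr5:134945119-134946934, Cdh1 (ENSMUSG00000000303) at chr8:106603351-106670246, and Vim (ENSMUSG00000026728) at chr2:13573927-13582826. All 9 are protein coding. Krt7 overlaps Gm671 and Krt8 overlaps Gm36026 on the opposite strand, and neither overlaps a gene on its own strand. Whether these overlaps touched the 2 levels was not examined. Keratin genes also have near-identical processed copies, and how reads shared with them were counted was not examined.

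Over all barcodes, the 8 epithelial genes summed to 786 and 685 UMIs in reactions 1 and 2, or 1.81 and 1.82 CPM (1.81 ± 0.00827, SD, n = 2). Vim gave 1215109 and 1387519 UMIs, or 2793 and 3683 CPM (3238 ± 630, SD, n = 2). The epithelial sum was thus nearly equal in both reactions and small against Vim. With barcodes limited to under 2500 genes and under 10% mitochondrial counts it was 6.88 CPM and Vim 1996. These levels are not divided by gene length, since the assay counts the 5′ end of each transcript, and exact Poisson 95% intervals given below cover counting error only.

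Krt8, the type II chain of the simple epithelial pair, was found as 46 and 35 UMIs in reactions 1 and 2 (0.106 and 0.0929 CPM). Its partner Krt18 was found as 4 and 6 UMIs (0.00920 and 0.0159 CPM). Krt8 was in 80 barcodes and Krt18 in 9, and no barcode held both. At so few UMIs this says nothing of whether the pair is made in the same cells. In the Ptprc-low barcodes Krt8 stood at 0.118 and 0.107 CPM (57 UMIs in 56 of 25095 barcodes) and Krt18 at 1 UMI. The pooled Krt18 level there was 0.00198 CPM, with an upper bound of 0.0110. T-like barcodes, which should lack both, held 0 UMIs of Krt8 among 2395 barcodes and 3 of Krt18. Their 95% upper limit for Krt8 was 0.304 CPM, above the level in the Ptprc-low barcodes, so a difference in Krt8 was not detectable at this depth. Of the Krt8 UMIs, 70.4% were in Ptprc-low barcodes, which held 62.3% of all UMIs.

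Krt7, a type II keratin of ductal and glandular epithelia, was the most counted of the 5 keratins, with 158 and 149 UMIs (0.363 and 0.396 CPM). In Ptprc-low barcodes it stood at 0.414 and 0.440 CPM, with intervals of 0.339 to 0.501 and 0.362 to 0.530. The T-like levels of 0.280 and 0.201 CPM rested on 3 UMIs, and their intervals spanned those values. Pooled over reactions, Krt7 was 0.427 CPM (0.372 to 0.488) in Ptprc-low and 0.165 CPM (0.0791 to 0.303) in macrophage-like barcodes, so these counting intervals did not overlap. Fibroblast-like barcodes stood at 0.231 and 0.439 CPM (pooled 0.319, 0.165 to 0.558) and unnamed clusters at 0.323 and 0.358, and both overlapped the Ptprc-low intervals. It was carried by 168 of the 25095 Ptprc-low barcodes (0.670%, against 0.125% of T-like ones), most with a single UMI. Thinned to 3000 UMIs, the shares were 0.135% and 0.126% against 0.0469% and 0.0475%. Here and below, thinning used only barcodes with at least that many UMIs. At 3000 these were 12387 and 9485 Ptprc-low barcodes but only 494 and 366 of the 1406 and 989 T-like ones. A few barcodes held more: 26 had at least 2 UMIs, 10 had at least 3, and the highest of all barcodes had 8. Krt80, another type II keratin chosen after its values were seen, was in 19 of the 168 barcodes, 7 of the 26, and 4 of the 10. It was in 179 of the 24927 Ptprc-low barcodes without Krt7, and the depth of these barcodes was not compared. No barcode held Krt7 with Krt8.

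Krt19, a type I keratin of ductal and gut epithelium, gave 28 and 34 UMIs (0.0644 and 0.0903 CPM), and Krt20, a keratin of differentiated intestinal cells, gave 48 and 42 (0.110 and 0.112 CPM). Neither was mainly in the Ptprc-low barcodes. Of the Krt20 UMIs, 77 of 90 (85.6%) were in fibroblast-like barcodes, where it stood at 1.85 and 2.32 CPM. Ptprc-low barcodes held 1 UMI of Krt20, a pooled level of 0.00198 CPM. Of the Krt19 UMIs, 36 of 62 (58.1%) were in fibroblast-like barcodes, at 0.832 and 1.13 CPM, against 0.0197 and 0.0396 CPM in Ptprc-low barcodes. So both keratins of the gut lining were higher in the fibroblast-like barcodes, in both reactions, than in the Ptprc-low ones. Krt20 was in 74 and Krt19 in 29 of the 4161 fibroblast-like barcodes, and no barcode held both. Thinned to 3000 UMIs, Krt20 was in 0.836% and 1.11% of the 1916 and 1278 fibroblast-like barcodes that deep. Unthinned it was in 1.49% and 2.25% of all barcodes of this class. The thinned share was 0 in T-like and 0 and 0.00332% in Ptprc-low barcodes. Barcodes with several hashtags, which include doublets, made up 51.2% of the fibroblast-like class.

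**Figure D1:**
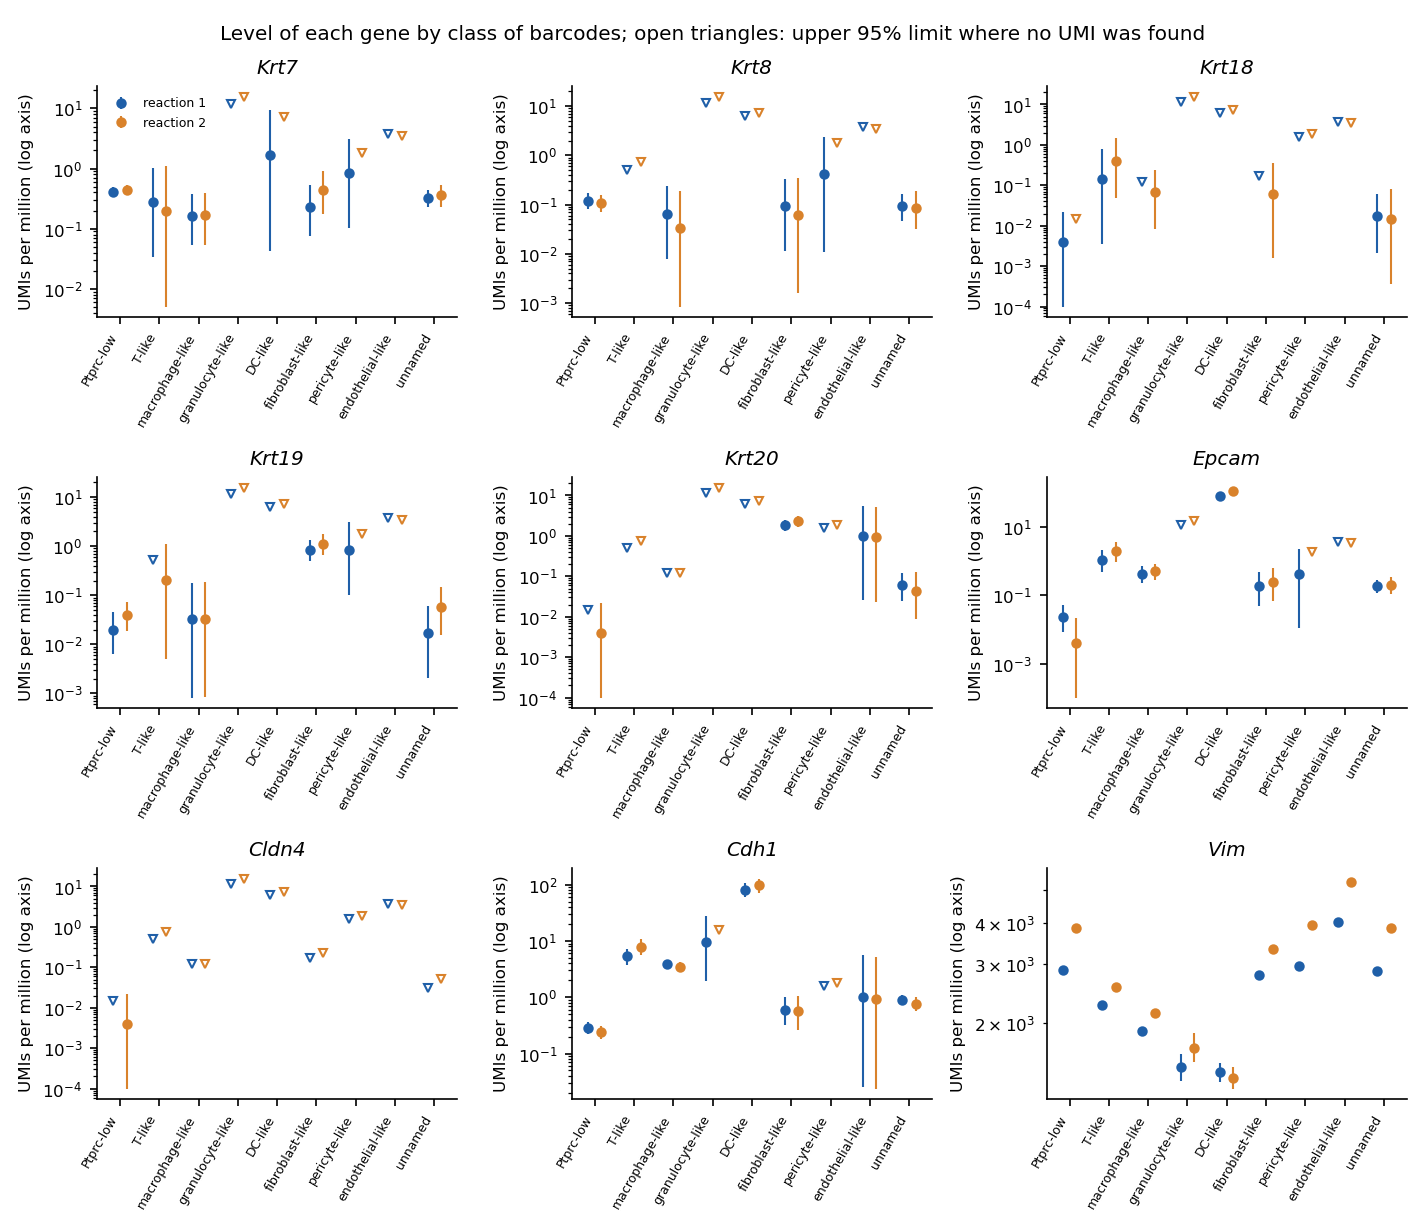
Level of each of the 9 genes in CPM (log axes that differ between panels) by class of barcodes, for reactions 1 and 2. Points are pooled levels, bars exact Poisson 95% intervals, and open triangles the upper limit where no UMI was found. Krt20 is highest in fibroblast-like barcodes (1.85 and 2.32) and Epcam and Cdh1 in DC-like barcodes (82.7 and 113; 81.0 and 97.7), while Vim lies between 1375 and 5280 in every named class.

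Epcam gave 103 and 102 UMIs over all barcodes (0.237 and 0.271 CPM). DC-like barcodes were 0.437% of barcodes and held 107 of these 205 UMIs (52.2%). Epcam stood there at 82.7 and 113 CPM and was in 67 of 283 barcodes. The Ptprc-low barcodes held 6 and 1 UMIs (0.0237 and 0.00396 CPM), or 0.0143% of the DC-like level, and T-like barcodes stood at 1.12 and 2.01 CPM. The T-like level rested on 18 UMIs. Of the T-like barcodes 50.3% had several hashtags, and they held the macrophage list at 4985 and 9169 CPM, so UMIs of other cells may be among these, and their part was not tested. Thinned to 3000 UMIs, 17.3% and 21.6% of the 84 and 79 DC-like barcodes that deep held Epcam. The shares were 0.308% and 0.810% for T-like and 0.0107% and 0.000678% for Ptprc-low barcodes.

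Cdh1 was the most counted of the 8 epithelial genes, with 399 and 316 UMIs (0.917 and 0.839 CPM), and was also highest in DC-like barcodes, at 81.0 and 97.7 CPM. Macrophage-like barcodes held 222 of the 715 UMIs (31.0%), at 3.83 and 3.49 CPM, and T-like barcodes stood at 5.31 and 7.83 CPM. In Ptprc-low barcodes Cdh1 was 0.284 and 0.238 CPM, with intervals of 0.222 to 0.358 and 0.182 to 0.306, lower in each reaction than in those 3 classes. Its share of barcodes there, 0.509% and 0.530%, was below the T-like shares of 2.63% and 3.64% although the median depth was 18969 against 1652 UMIs. Thinned to 3000 UMIs, the shares were 0.0956% and 0.0760% against 1.97% and 1.31%. The ratio of Cdh1 to Epcam UMIs was 0.980 and 0.862 in DC-like, 4.75 and 3.90 in T-like, and 9.08 and 6.93 in macrophage-like barcodes, so the 2 genes did not keep 1 ratio across classes. Cldn4 was found as 1 UMI in 811725030, in a Ptprc-low barcode of reaction 2, and all other barcodes were at 0.

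Within the 283 DC-like barcodes, 33 held both Epcam and Cdh1. Ccr7, a marker of mature migratory DCs, was in 61, and 4 of these (6.56%) had Epcam, against 63 of the 222 without Ccr7 (28.4%). For Mgl2, a lectin of type 2 conventional DCs, it was 27 of 79 (34.2%) against 40 of 204 (19.6%). Cdh1 was in 45 of the 109 barcodes with Itgax, the gene of CD11c (41.3%), and in 26 of the 174 without (14.9%). Other DC markers did not all go the same way. With Flt3, Zbtb46, or Clec9a the Cdh1 share was lower, the direction of Epcam with Ccr7 and opposite to Cdh1 with Itgax. With and without Flt3 the Cdh1 shares were 20.9% and 26.9%, with and without Zbtb46 17.1% and 26.4%, and with and without Clec9a, a marker of type 1 conventional DCs, 6.06% and 27.6%. For Cd209a, another type 2 marker, the Epcam shares were 25.0% and 23.5% and the Cdh1 shares 31.2% and 24.3%. Median depth was 3370 and 3230 UMIs with and without Ccr7 and 3977 and 2864 with and without Itgax. Cd207, the langerin gene of Langerhans cells, was at 0 in all 283. Epcam was among the 10 leading genes of this cluster although it was left out of the genes used for clustering.

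**Figure D2:**
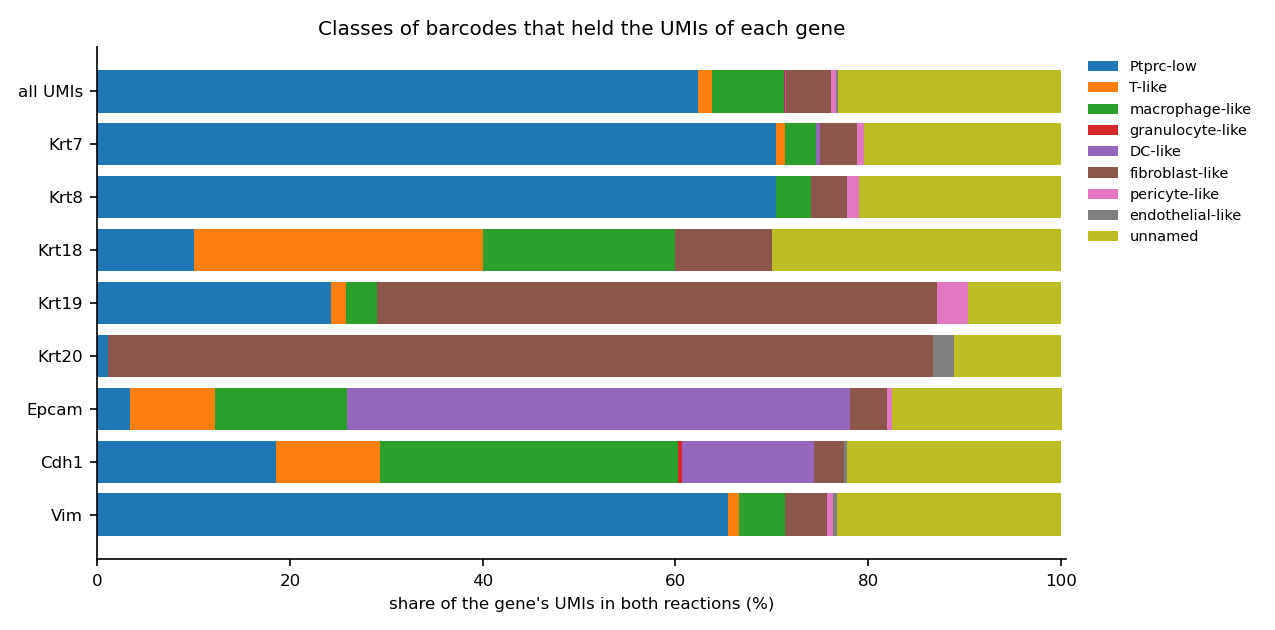
Share of each gene's UMIs over both reactions (%) by class of barcodes, with the share of all UMIs in the top bar; Cldn4, with 1 UMI, is not drawn. Fibroblast-like barcodes hold 85.6% of Krt20, DC-like barcodes 52.2% of Epcam, and Ptprc-low barcodes 70.4% of Krt7 and Krt8 and 65.5% of Vim.

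Vim was in 94.4% and 92.4% of all barcodes. Its level was 4005 and 5280 CPM in endothelial-like, 2976 and 3929 in pericyte-like, 2886 and 3856 in Ptprc-low, and 2788 and 3329 in fibroblast-like barcodes. T-like barcodes followed at 2263 and 2573, macrophage-like at 1892 and 2153, granulocyte-like at 1476 and 1692, and DC-like at 1425 and 1375. Reaction 2 was higher in each class but the DC-like one. The pericyte-like, Ptprc-low, and fibroblast-like values overlapped across reactions, and the other neighbors in this order did not. In the Ptprc-low barcodes Vim averaged 3371 CPM ± 686 (SD, n = 2) and was found in 97.4% and 94.8% of barcodes, against 83.4% and 75.6% of T-like ones. Thinned to 1000 UMIs, the shares were 83.1% and 87.5% against 73.0% and 70.4%. At 3000 UMIs they were closer, at 98.3% and 99.0% against 96.7% and 95.8%.

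Few barcodes held more than 1 epithelial gene. Over all 64736 barcodes, 1228 (1.90%) held at least 1 of the 8, 56 held 2, and none held 3. In the Ptprc-low barcodes 374 (1.49%) held 1 or more, against 92 of 2395 T-like barcodes (3.84%), and only 1 held 2. Thinned to 3000 UMIs, the shares were 0.280% and 0.243% in Ptprc-low and 2.41% and 2.22% in T-like barcodes. The T-like share rested mainly on Cdh1, with 77 of 102 UMIs, and the Ptprc-low share on Krt7, with 216 of 430, so the summed shares do not compare the same genes. Vim was present in 1195 of the 1228 barcodes (97.3%), against 93.5% of the others. It was in all 374 of the Ptprc-low ones, against 96.2% of the other Ptprc-low barcodes, and median depth was 25421 against 18833 UMIs. Vim was thus found in nearly all Ptprc-low barcodes, with or without an epithelial UMI.

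The levels changed with the number of genes found in a barcode. Over all barcodes, the epithelial sum was 2.03 and 4.35 CPM at 200 to under 500 genes, 7.79 and 8.33 at 1000 to under 1500, and 0.584 and 0.865 at 6000 or more. Vim went the other way, from 1316 and 1059 CPM in the lowest range to 3481 and 4444 in the highest. The median barcode had 930 genes in the T-like, 1511 in the macrophage-like, 2057 in the fibroblast-like, and 4064 in the Ptprc-low class, so the ranges hold different classes. Within the Ptprc-low barcodes Vim still went from 1553 and 1001 CPM to 3467 and 4429. The epithelial sum there was 1.27 and 0.842 CPM for 2500 to under 4000 genes and 0.328 and 0.813 for 6000 or more. It was at 0 in both reactions for 1000 to under 1500 genes. A floor of 3 counts stood at 1.96 and 3.19 CPM in that range, so it cannot be set against the others. Over all barcodes, Krt7 was at 0 below 500 genes, where a floor of 3 counts stood at 0.972 CPM, and 0.536 and 0.463 CPM at 2500 to under 4000 genes.

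**Figure D3:**
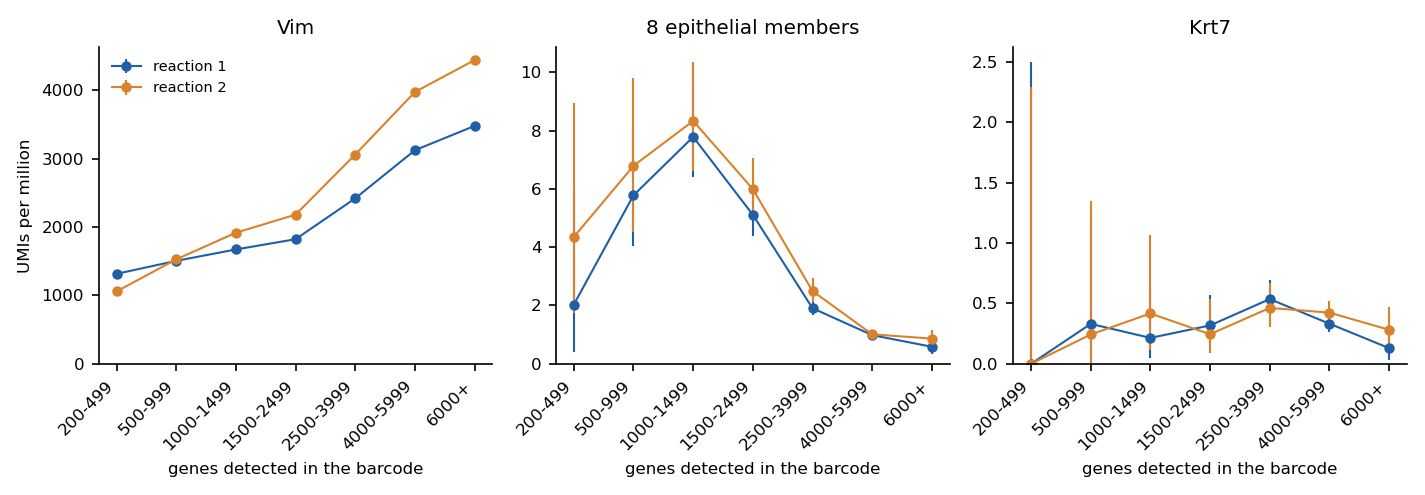
Level in CPM of Vim, of the 8 epithelial genes summed, and of Krt7 by range of genes detected in the barcode, over all barcodes of reactions 1 and 2. Bars are exact Poisson 95% intervals. Vim is highest (3481 and 4444) and the epithelial sum lowest (0.584 and 0.865) in barcodes with 6000 genes or more.

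The 3 Ptprc-low clusters held 11927, 8157, and 5011 barcodes. The first was led by Prl2c2, Cox6a2, and Hmga1, the second by H19, Cilp, and Aqp1, and the last by Rfx3, Magi1, and Galntl6, with a median of 16.4% mitochondrial counts and 1318 genes. Vim was 3177 and 4211 CPM in the first, 2616 and 3269 in the second, and 1372 and 1344 in the last, so the rise of Vim with gene number moved with the clusters too. The epithelial sum was 0.736 and 0.811 CPM in the first, 1.12 and 0.877 in the second, and 0.904 and 1.03 in the last. None of the clusters thus stood out as an epithelial one.

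Most other epithelial genes were also low in these barcodes. Of a list of 30 (junction, intestinal, and epithelial regulator genes), 26 were under 1 CPM in the Ptprc-low barcodes, the median was 0.0544 CPM, and Cdx2, the intestinal master regulator, was at 0. The 6 highest were Ctnnb1 (69.3 and 59.7 CPM) and Ctnnd1 (32.8 and 24.5), the catenins that all adherent cells use, then Jup (2.88 and 3.57), a junctional plaque protein, Spint2 (2.47 and 1.83), a protease inhibitor, F11r (1.20 and 0.722), a junction adhesion molecule, and Krt80 (0.465 and 0.385). Over all barcodes the median of the list was 0.0912 CPM. This list was among those that a cluster had to miss to be Ptprc-low. Its low values there are therefore no independent measure of the class.

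All 20 genes of a mesenchymal list were over 1 CPM, 18 were over 10, and the median was 73.9 CPM, against 92.2 over all barcodes. The 6 highest were Lgals1 (8033 and 8564 CPM), a galectin, S100a4 (1215 and 1152), a calcium-binding protein of motile cells, the matrix genes Fn1 (1161 and 1013) and Sparc (430 and 508), the hyaluronan receptor Cd44 (248 and 177), and Spp1 (150 and 187), encoding osteopontin. Of the repressors, Zeb1 stood at 176 and 126 CPM, Zeb2 at 126 and 95.4, Twist1 at 68.3 and 83.0, Snai1 at 43.8 and 59.3, and Snai2 at 4.76 and 4.71. By class, the median of the list was 76.5 CPM in DC-like, 97.3 in granulocyte-like, 108 in T-like, 117 in endothelial-like, 124 in macrophage-like, 134 in fibroblast-like, and 150 in pericyte-like barcodes. Several hashtags were found on 50.3% to 52.3% of the T-like, fibroblast-like, pericyte-like, and endothelial-like barcodes, and no background was taken off, so these medians are not those of pure classes. The Ptprc-low median of 73.9 CPM was below that of each of these classes. The summed level of the list was 12100 and 12395 CPM in Ptprc-low barcodes, of which Lgals1 alone gave 8033 and 8564. It was 9251 and 8476 in T-like, 4487 and 3561 in DC-like, 12164 and 13003 in pericyte-like, and 18137 and 20444 in fibroblast-like barcodes. A skin keratinocyte list summed to 41.6 and 39.5 CPM in the Ptprc-low barcodes, of which Krt10 was 39.1 and 37.2 CPM.

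**Figure D4:**
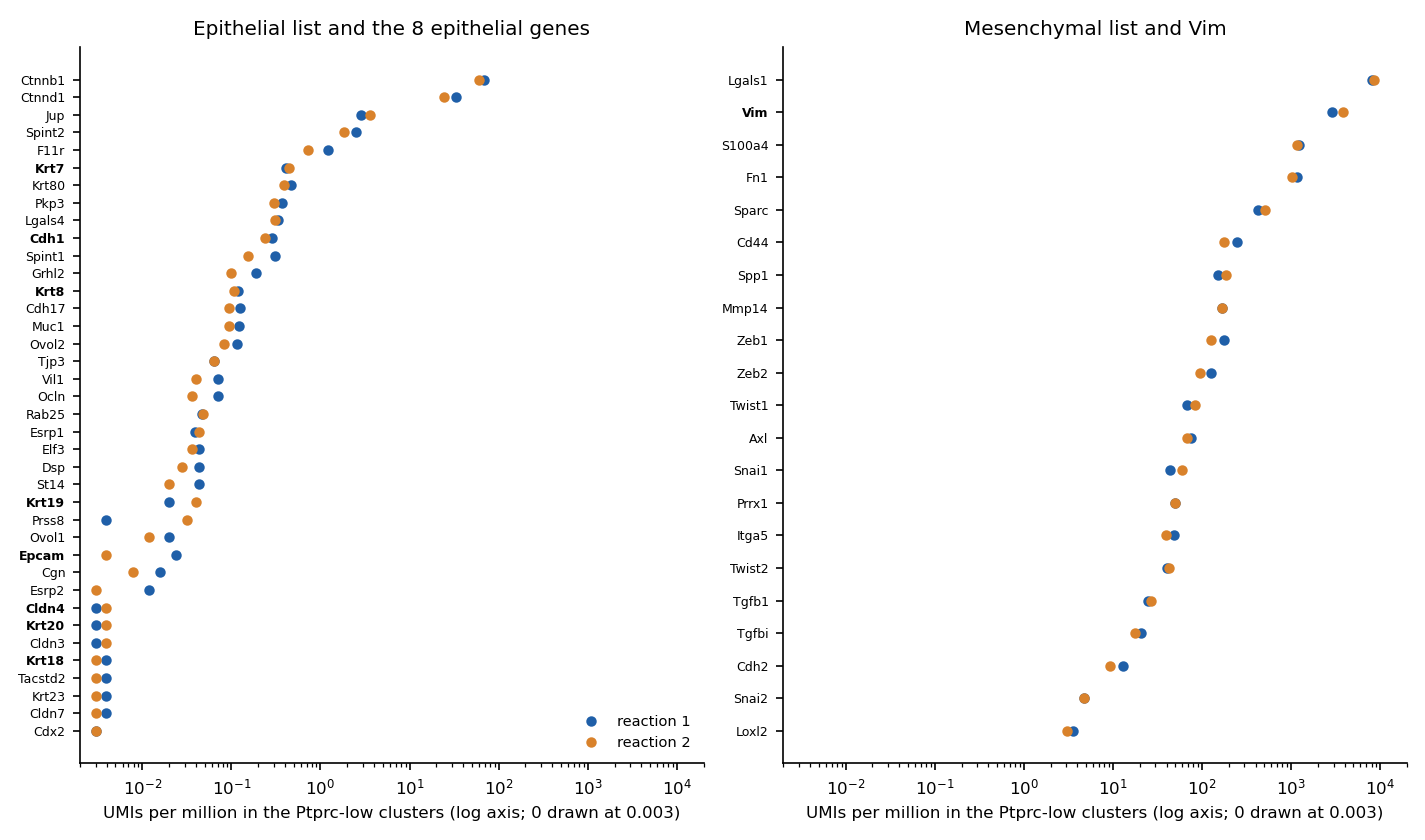
Level in CPM (log axis, with 0 drawn at 0.003) in the Ptprc-low barcodes of reactions 1 and 2 for the 30 genes of the epithelial list with the 8 epithelial genes, left, and the 20 genes of the mesenchymal list with Vim, right; the 9 genes are in bold. The median is 0.0544 for the epithelial list and 73.9 for the mesenchymal list.

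The pattern most like each gene was sought over 32 sums, 1 per cluster and reaction, among 8673 genes. Vim was closest to Mrps11 (Pearson r = 0.939), Pigf (0.925), Tspan4 (0.911), and Pcbp1 (0.906). The sum of Krt8 and Krt18 reached at most 0.514, for Hacd3, followed by Mettl6 (0.494), Sh2b1 (0.484), Nt5c3 (0.472), and Vps53 (0.443). The sums share libraries and differ in depth, and at these few UMIs a value near 0.5 is no finding. The antibody panel of the MC38 reactions, with 122 antibodies, held 0 against EpCAM or E-cadherin, so the proteins were not measured.

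Whether treatment moved the genes within the Ptprc-low barcodes was examined in sums per group and reaction of barcodes with a single hashtag. The sums held 4236 and 4233 barcodes for isotype, 2521 and 2186 for isotype + ABT-317, 1758 and 1819 for CPI + ABT-317, and only 69 and 35 for CPI. Only Krt7, Cdh1, and Vim passed the filter on low counts among 15114 genes, so 6 of the 9 could not be tested. By edgeR's quasi-likelihood test with Benjamini-Hochberg adjustment, 0 of the 3 were called in any of the 4 comparisons. That fit did not pair sums of the same reaction, though reaction differences correlated at 0.72 to 0.81 among the groups other than CPI. With reaction as a replicate block, Vim was called in both comparisons with CPI alone, and many more genes were called in each comparison (below). The shares that follow are those without the block. Of all genes, 3.84% were called for CPI against isotype (1.98% higher, 1.85% lower) and 0.00% for isotype + ABT-317 against isotype. The share was 0.569% for CPI + ABT-317 against CPI (0.258% higher, 0.311% lower) and 0.146% for CPI + ABT-317 against isotype + ABT-317 (0.112% higher, 0.0331% lower). Leaving out 1 sum moved the number of genes called from 580 to between 71 (without CPI reaction 2) and 432 in the first comparison, from 86 to between 0 (without CPI reaction 2 or CPI + ABT-317 reaction 2) and 79 in the one of CPI + ABT-317 with CPI, and from 22 to between 0 (without CPI + ABT-317 reaction 1) and 32 in the last. DESeq2 called 0 of them too. At an unadjusted p under 0.05 by edgeR, Vim passed in both comparisons with CPI alone. So did 2875 of the 15114 genes for CPI against isotype and 1863 for CPI + ABT-317 against CPI. Across all genes for isotype + ABT-317 against isotype, 623 had an unadjusted p under 0.05, and DESeq2 called 6.

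Vim stood at 2912 and 3798 CPM in isotype, 2102 and 2778 in CPI, 2848 and 3837 in CPI + ABT-317, and 2616 and 3533 in isotype + ABT-317. CPI was lowest within each reaction, but the reactions of a group lay further apart than most groups did. The log2 fold change of CPI against isotype was -0.57 (SE 0.24, adjusted p = 0.237), and -0.58 (SE 0.05, adjusted p = 3.3e-07) with reaction as a replicate block. For CPI + ABT-317 against CPI it was 0.58 (SE 0.24, adjusted p = 0.371), and 0.58 (SE 0.05, adjusted p = 6.6e-07) with the block. With the block the number of genes called also rose, from 580 to 2252 and from 86 to 1190. Cluster makeup moved with the group: the first Ptprc-low cluster made up 50.7% and 77.1% of the CPI barcodes and 40.6% and 43.8% of the isotype ones. Within it Vim was 2193 and 2898 CPM in CPI and 3359 and 4301 in isotype. The part of the few CPI barcodes in this difference was not tested further.

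Krt7 gave 14 and 27 UMIs in isotype (0.211 and 0.320 CPM), 19 and 21 in CPI + ABT-317 (0.598 and 0.494), and 18 and 15 in isotype + ABT-317 (0.401 and 0.300). It was at 0 in both CPI sums, which held 1066956 and 920680 UMIs, so that its level there was not detectable at this depth. The log2 fold change of isotype + ABT-317 against isotype was 0.41 (SE 0.38, adjusted p = 1.00). Cdh1 gave 27 and 18 UMIs in isotype and 7 and 12 in isotype + ABT-317, with a log2 fold change of -0.56 (SE 0.47, adjusted p = 1.00). Krt8 lay between 1 and 10 UMIs in the 6 sums outside CPI, Krt18 was at 0 in all 8 sums, and Krt19, Krt20, Epcam, and Cldn4 had at most 3 UMIs in any sum.

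Of the mesenchymal list, Fn1 (-1.39, SE 0.14, adjusted p = 0.00273), S100a4 (-2.44, SE 0.26, adjusted p = 0.00282), Tgfbi (-2.68, SE 0.37, adjusted p = 0.00734), and Mmp14 (-0.53, SE 0.11, adjusted p = 0.0401) fell in CPI against isotype on the log2 scale, and Itga5 rose (1.00, SE 0.21, adjusted p = 0.0402), all by edgeR. That made 5 of 20 called, where 3.84% of all genes were. The median of the list was -0.23, against -0.04 over all genes tested. Beside this, the fibroblast list summed to 1251 and 1071 CPM in the CPI sums and 2549 and 2673 in isotype, and the second Ptprc-low cluster made up 21.7% and 17.1% of CPI and 37.9% and 38.9% of isotype barcodes. The part of this makeup, and of the 69 and 35 CPI barcodes, in these calls was not tested. For CPI + ABT-317 against CPI, S100a4 (1.97, SE 0.26, adjusted p = 0.0217) and Tgfbi (2.27, SE 0.38, adjusted p = 0.0484) were called higher, where 0.569% of all genes were called. Both calls were lost without CPI reaction 2 or CPI + ABT-317 reaction 2, where 0 genes were called. In the comparisons without CPI alone, 0 of the 20 were called, where 0.00% and 0.146% of all genes were. The 10 genes of the epithelial list that passed the filter gave 0 calls in all 4 comparisons. Both counts depended on the replicate block. With it, 3524 of 15114 genes were called for isotype + ABT-317 against isotype and 3743 for CPI + ABT-317 against isotype + ABT-317. Of the mesenchymal list, 9 (1 higher, 8 lower) and 11 (4 higher, 7 lower) were then called, and of the epithelial list 3 (1 higher, 2 lower) in each. Of the members, 0 were called in either of these.

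The groups were then compared over all barcodes. In such sums fewer cells of a type and less RNA per cell cannot be told apart. Of the CPI barcodes 44.1% and 44.5% were fibroblast-like, 27.4% and 26.9% T-like, and 3.39% and 2.16% Ptprc-low. The CPI hashtags were the weakest of the 8: the mixture fitted to log counts placed the centers of the positive and negative barcodes at 54.7 and 17.7 UMIs in reaction 1 and at 37.1 and 10.2 in reaction 2. For the other hashtags the positive center lay between 147 and 463 UMIs and the negative one between 8.92 and 71.5. Of 9780 and 5082 barcodes positive for CPI, 2033 and 1622 had no other hashtag. The part of this in the CPI results was not tested. The Ptprc-low share was 37.0% and 40.3% in isotype, 74.9% and 71.5% in CPI + ABT-317, and 76.4% and 81.2% in isotype + ABT-317. Since CD45- and CD45+ cells were sorted and loaded in about equal parts, class shares here and below are not those of cells in the tumors. The fibroblast list summed to 43296 and 49032 CPM in CPI and 2459 and 2369 in isotype. The filter passed 6 of the 9 genes among 17324, and comparisons below share the isotype or the CPI sums. By edgeR, 3 members were called for CPI against isotype (3 higher), where 49.6% of all genes were called (24.9% higher, 24.7% lower). For isotype + ABT-317 against isotype 2 were called, both lower, against 11.6% of all genes (0.964% higher, 10.7% lower). For CPI + ABT-317 against CPI 5 were called, 1 higher and 4 lower, against 56.8% (26.3% higher, 30.5% lower). For CPI + ABT-317 against isotype + ABT-317 it was 0, against 1.56% (1.40% higher, 0.162% lower). There 1 member, Cdh1, had an unadjusted p under 0.05, as did 2101 of the 17324 genes, and DESeq2 called 0 members.

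Krt20 gave 2 and 3 UMIs in isotype (0.0202 and 0.0248 CPM), 19 and 17 in CPI (3.03 and 2.75), and 0 in the other 4 sums. It was high in both CPI sums alone, 127-fold above isotype and at least 76.3-fold above CPI + ABT-317, with a floor of 3 counts per group. By edgeR it was higher in CPI than in isotype by 6.62 on the log2 scale (SE 0.47, adjusted p = 4.1e-05). All 36 of its UMIs in CPI were in fibroblast-like barcodes. That class held 897 and 721 barcodes in CPI but 66 and 33 in isotype, where it held 0 and 1 UMIs of Krt20. Within it, pooled over reactions, Krt20 stood at 5.29 CPM in CPI (3.705 to 7.32) and 1.22 in isotype (0.0309 to 6.80, from 1 UMI). These counting intervals overlapped, so a difference within the class was not detectable at this depth. Krt19 was also high in both CPI sums alone, at 3 and 4 UMIs in isotype, 7 and 6 in CPI, 1 and 1 in CPI + ABT-317, and 0 and 2 in isotype + ABT-317. Its log2 fold change by edgeR was 4.71 for CPI against isotype (SE 0.66, adjusted p = 4.4e-04) and -4.96 for CPI + ABT-317 against CPI (SE 0.79, adjusted p = 7.1e-04). Of the 13 Krt19 UMIs in CPI, 12 were in fibroblast-like barcodes.

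Epcam gave 44 and 64 UMIs in isotype (0.444 and 0.529 CPM), 2 and 3 in CPI (0.319 and 0.485), 2 and 1 in CPI + ABT-317, and 1 and 0 in isotype + ABT-317. It fell by 5.23 on the log2 scale in isotype + ABT-317 against isotype (SE 0.67, adjusted p = 7.7e-04), a call lost when barcodes were assigned to the hashtag that led by 1 natural log unit (-2.28, adjusted p = 0.127). DC-like barcodes numbered 90 and 77 in isotype, 18 and 19 in CPI, and at most 3 in each sum with ABT-317. They held 82 of the 108 isotype UMIs. An Epcam UMI was found in 0 of 18 and 0 of 19 DC-like barcodes in CPI and in 26 of 90 and 23 of 77 in isotype. Barcodes are not replicates, and with these few this difference was not tested. For CPI + ABT-317 against CPI the log2 fold change was -3.04 (SE 0.94, adjusted p = 0.0217). That call was lost without CPI reaction 1 (adjusted p = 0.0547), CPI reaction 2 (0.149), or CPI + ABT-317 reaction 2 (0.0883), all by edgeR.

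Cdh1 gave 157 and 124 UMIs in isotype (1.59 and 1.03 CPM), 19 and 19 in CPI (3.03 and 3.07), 23 and 21 in CPI + ABT-317 (0.682 and 0.462), and 13 and 16 in isotype + ABT-317 (0.270 and 0.308). The 4 groups did not overlap. By edgeR it rose by 1.01 on the log2 scale in CPI against isotype (SE 0.31, adjusted p = 0.0241), a call lost without isotype reaction 2 (adjusted p = 0.0951), CPI reaction 1 (0.0969), or CPI reaction 2 (0.133). With barcodes limited to under 2500 genes and under 10% mitochondrial counts it was -0.27 (adjusted p = 0.536). Of the 38 UMIs in CPI, 28 were in T-like barcodes. It fell by 2.06 in isotype + ABT-317 against isotype (SE 0.30, adjusted p = 0.00184) and by 2.16 in CPI + ABT-317 against CPI (SE 0.36, adjusted p = 9.1e-04). Macrophage-like barcodes, which held 111 of the 281 isotype UMIs, were 34.1% and 39.7% of isotype and 8.49% and 8.17% of isotype + ABT-317 barcodes, and the macrophage list summed to 3962 and 5082 against 618 and 577 CPM. Within that class, pooled over reactions, Cdh1 stood at 3.48 CPM in isotype (2.87 to 4.195) and 3.60 in isotype + ABT-317 (1.45 to 7.42, from 7 UMIs). The counting intervals overlapped. DC-like barcodes held 72 of the 281 isotype UMIs, at 125 CPM, and numbered 167 in isotype and 4 in isotype + ABT-317. In the latter they held 1 UMI of Cdh1. Under the same limits on barcodes the 2 log2 fold changes were -1.38 (adjusted p = 0.367) and 0.21 (adjusted p = 0.732).

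In these sums Vim fell short of a call for CPI against isotype (-0.63, SE 0.24, adjusted p = 0.0536, and 2.8e-09 with the replicate block) and rose by 0.77 for CPI + ABT-317 against CPI (SE 0.24, adjusted p = 0.0228). The second call was lost without CPI reaction 1 (adjusted p = 0.156) or CPI + ABT-317 reaction 2 (0.152), and with barcodes limited to under 2500 genes and under 10% mitochondrial counts (0.09, adjusted p = 0.776). Under those limits Vim was 0.12 for CPI against isotype (SE 0.22, adjusted p = 0.707 by edgeR). Whether the calls over all barcodes reflect more than the class shares was not tested.

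**Figure D5:**
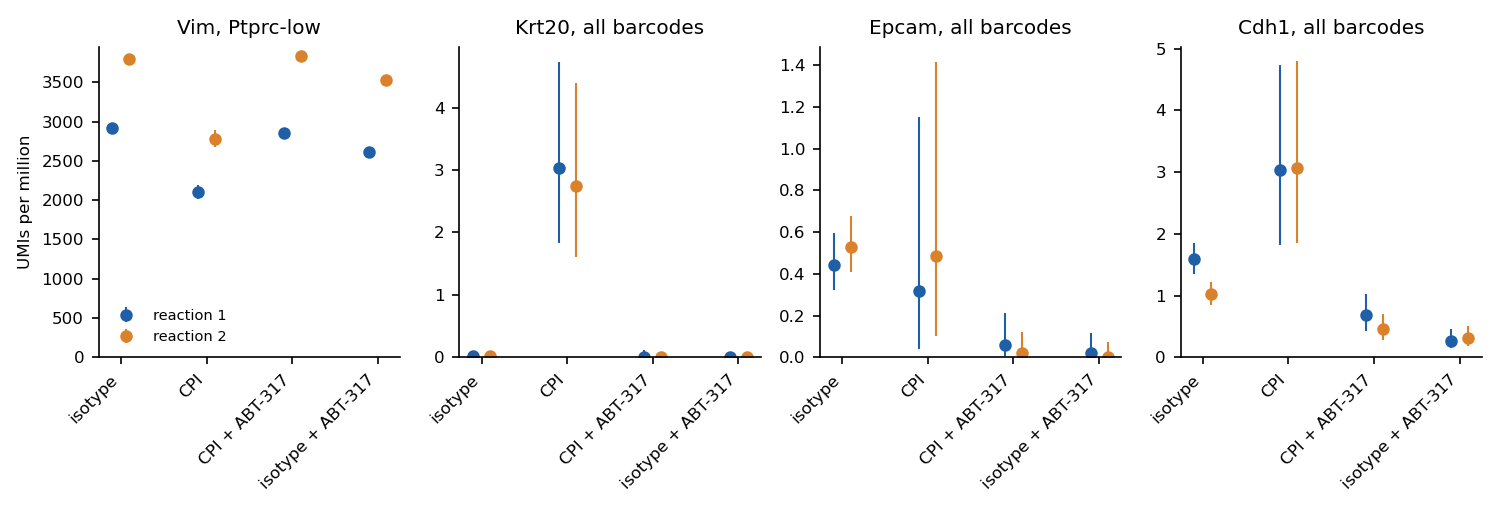
Level in CPM by group for reactions 1 and 2, with exact Poisson 95% intervals: Vim in the Ptprc-low barcodes, and Krt20, Epcam, and Cdh1 over all barcodes with a single hashtag. Vim is lowest in CPI (2102 and 2778), Krt20 is high in CPI alone (3.03 and 2.75), and Epcam and Cdh1 are low in both groups given ABT-317.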

How the data were processed

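The values the authors deposited are raw UMI counts for each gene in each barcode, from Cell Ranger (8.0.1 per the headers of the MC38 matrices, 3.1.0 per the submitters' processing notes). The notes name GRCm38, but the build behind the MC38 gene list is not stated, so positions were matched by gene ID. The 9 genes and all lists were chosen with earlier results of these data known, and class limits were set after clusters had been seen.

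Counts of barcodes with at least 200 genes were scaled to 10000, transformed to natural logs, and clustered on 2000 variable genes without the 9 genes (30 principal components, 15 neighbors, Leiden resolution 0.5; igraph 0.11.9, Python 3.11.15). A class needed 3 markers at 1.5 times their level elsewhere in at least 1% of barcodes and a mean log2 ratio of 0.4; clusters with leading genes against their name, and those meeting no list with more Ptprc than 5% of 353 CPM, stayed unnamed. No doublet caller was run. Barcodes with several hashtags stayed in all levels, and treatment sums used those with exactly 1. Hashtags were called by a normal mixture of 2 components (posterior 0.5) with the deposited key.

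Summed counts were expressed as CPM with exact Poisson limits, and Clopper-Pearson limits were used for shares. Sums of at least 20 barcodes were fitted in edgeR 4.0.16 (R 4.3.3) with TMM, filterByExpr, and glmQLFTest, with all 4 groups in 1 fit, and genes at an adjusted p under 0.05 were called. DESeq2 1.42.0 was tried too. The script was tested on simulated data. Sums of the same number come from the same reaction, and their reaction differences correlated at 0.32 to 0.81 in Ptprc-low barcodes, so a replicate block was tried. Named genes were the 9, the 6 highest of each list, the Y-linked list, and the 5 most similar patterns, of which 1 is not reported here; the repressors, Tgfbi, Mmp14, Itga5, Cdx2, Krt10, and the DC genes were named after their values were seen.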

Additional observations from a re-analysis of the deposited data

How the results depend on the processing

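The study's limits (under 2500 genes, under 10% mitochondrial counts) raised the epithelial sum over all barcodes from 1.81 to 6.88 CPM and lowered Vim from 3238 to 1996, and in Ptprc-low barcodes they gave 0.478 and 2000 CPM. These limits left 0 members called for CPI against isotype, isotype + ABT-317 against isotype, and CPI + ABT-317 against CPI over all barcodes, where Krt19, Krt20, and Epcam had no fitted value and so were not tested, and turned Cdh1 to -0.27 and 0.21 (log2) in the first and last of these and Vim to 0.12 and -0.19 in the first 2. In Ptprc-low sums they turned Vim to 0.02 for isotype + ABT-317 against isotype and -0.11 for CPI + ABT-317 against isotype + ABT-317, and left too few CPI barcodes for a value. The cause of these turns was not tested. With exactly 1 hashtag the epithelial sum was 1.85 CPM over all and 0.772 in Ptprc-low barcodes, with the 9 genes kept for clustering 0.736, and with all clusters that met no list, chosen after seeing the data, 0.965. Thinning to 1000 and 3000 UMIs gave shares of Ptprc-low barcodes of 0.0853% and 0.261% for the epithelial genes (1.49% as counted) and 85.3% and 98.6% for Vim (96.1%). Barcodes with fewer UMIs than that were left out of the thinned shares, so they do not cover the same barcodes as the shares as counted.

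With a replicate block, 1 member (Vim) was called in each comparison with CPI alone in Ptprc-low sums and 1 for CPI + ABT-317 against isotype + ABT-317 over all barcodes (log2 0.09, adjusted p = 0.0391 by edgeR), and genes called in Ptprc-low sums rose from 0 to 3524 and from 22 to 3743 in the comparisons without CPI alone, and with no filter 1 member was called in each of the first 2. The share of all genes called is not given here for the fits with no filter or for the block over all barcodes. Those counts are therefore not read as results about the members. A hashtag lead of 1 natural log unit left 1 member for isotype + ABT-317 against isotype (Epcam -2.28, adjusted p = 0.127), and library sizes alone turned Vim there to -0.04. Leaving out 1 sum (1 group in 1 reaction) at a time gave 0 members in Ptprc-low sums. Over all barcodes it gave 2 to 4 for CPI against isotype and 2 for isotype + ABT-317 against isotype. It gave 3 to 5 for CPI + ABT-317 against CPI and 0 for CPI + ABT-317 against isotype + ABT-317. The group concerned then had 1 sum left, so these counts are not read as results about the members. Vim then ranged, in the order above, from -0.93 to -0.36, -0.33 to 0.17, 0.36 to 0.94, and -0.19 to 0.34 in Ptprc-low sums, and for the comparisons of isotype + ABT-317 with isotype and with CPI + ABT-317 over all barcodes from -0.22 to 0.32 and -0.21 to 0.36. Its signs in those 2 rest on which sum is left out (0.17, 0.16, -0.19, -0.15, -0.16, -0.22, -0.21, -0.18). With 1 whole reaction left out, epithelial sums in Ptprc-low barcodes ranged from 0.837 to 0.864 CPM and shares from 1.41% to 1.59%. Vim there ranged from 2886 to 3856 CPM and 94.8% to 97.4%. Over all barcodes the levels ranged from 1.81 to 1.82 and from 2793 to 3683 CPM. Of 598 values recomputed, 463 were counted as unchanged. Fold changes were judged by direction and call, numbers of calls by their ratio, and levels by the replicate spread. Of the rest 93 moved, 14 were weaker, 13 stronger, and 15 reversed. Low counts limit the group comparisons of Krt8, Krt18, Krt19, Krt20, Epcam, and Cldn4 in Ptprc-low barcodes, and every member but Vim in the Ptprc-low CPI sums. Depth also limits the comparison of Krt8 with T-like barcodes.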

Other observations

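In the tumor-draining lymph nodes (TDLNs) of the same series, Epcam was found at 7.06, 7.14, and 5.98 CPM in reactions 1, 2, and 3 and Cdh1 at 1.09, 1.71, and 1.495 CPM. Krt18 stood at 0.228, 0.171, and 0.222 CPM, while Krt8 was at 0, 0, and 1 UMI and Krt19 at 0 in all 3. Cldn4, found once in the tumors, gave 17, 13, and 1 UMIs. Vim was 296, 298, and 347 CPM. The labels do not name the tumor these nodes drained, and the study describes sequenced TDLNs from mice with TRAMP-C2, a prostate tumor line. The nodes are another tissue with another gene list, so no comparison with the tumors was made.

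The genes whose pattern over the 32 cluster sums was closest to Epcam, looked up after the data were seen, were H2-Oa (r = 0.955), Ccr7 (0.942), and Ccl22 (0.941), and for Cdh1 Ccr7 (0.897), H2-Oa (0.888), and Ccl22 (0.885). All of them lead the DC-like cluster, and the values were not recomputed without the 2 sums of that cluster. Single DC-like barcodes went the other way for Ccr7 and Epcam.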
